A study of Mus musculus with 3 samples.

Results

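DEAD and DEAH box RNA helicases were examined after Med23 knockdown in B16F10, an established mouse melanoma line that makes pigment. Members were all genes of the deposited RPKM table (reads scaled to transcript length and library size) whose symbol was Ddx or Dhx followed by a number, without the viral RNA sensors Ddx58 and Dhx58. This gave 50 of the 12852 genes, 35 named Ddx and 15 named Dhx. The study compared 1 control library (titled siCtrl, genotype given as wild type) with 2 libraries of Med23 knockdown cells (siMed23A and siMed23B) by RNA sequencing. All cells were grown in DMEM with serum, and no time after transfection was given. Whether A and B stand for separate siRNAs, repeats or cultures is not in the labels, so the spread between these 2 libraries may be technical. The p-values rest on that spread, in part of the gene itself and for the larger part of genes of like level. Both knockdown libraries share the control. Since the table's header does not tell the knockdown columns apart, they are named first and second by column order.

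Med23, a subunit of the Mediator complex, stood at 5.23 RPKM in the control library, against 1.65 and 1.61 RPKM with the siRNA. All 8 melanocyte markers on a short list were present and summed to 7019 RPKM in the control and 3015 and 2903 RPKM after knockdown. Of 12 markers of other cell types 3 had rows in the table, with sums of 19.0, 12.4 and 12.8 RPKM, most of it Cd68. Their part in the results was not tested, and in bulk RNA fewer cells of a type and less RNA per cell cannot be told apart. Read depth was unknown, because the deposited values share 1 distribution in all libraries.

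DEAD and DEAH box proteins use ATP to open short RNA duplexes or to strip proteins from RNA, and take their names from the amino acids of a shared ATPase motif. DEAD box members mostly pry apart local duplexes, while many DEAH box members move along a strand from its 3′ side. Between them they serve almost every step in the life of an RNA, from splicing and ribosome assembly to export, translation and decay, and most are needed by every growing cell.

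Control levels of the 50 genes ran from 0.0126 RPKM (Ddx60) to 94.9 RPKM (Ddx1), with a median of 7.73 RPKM. In 25 genes both knockdown values lay below the control, in 19 both lay above it, and in 6 the control lay between them. In 24 genes the knockdown mean was within 1.2-fold of the control. No share over all genes stands beside these counts, so they describe the members only. With 1 control value, a gene can lie on one side of it in both knockdown libraries without a change. Tests used genes averaging 1 RPKM or more and were run on the log2(RPKM + 1) scale, on which changes of low genes are understated. Of the 50 members 46 were tested, and Ddx4, Ddx31, Ddx51 and Dhx33 were under the limit. By limma with Benjamini-Hochberg adjustment over all 9722 tested genes, 7 members rose and 10 fell, leaving 29 not past 0.05. Over all tested genes 50.3% passed, 26.3% higher and 24% lower. The 17 members that passed made up 37.0% of those tested. For the 46 tested members the middle log2 ratio (median) was -0.10, beside 0.01 over all tested genes. Genes named Ddx had a median of 0.04 (6 higher and 7 lower of 32) and genes named Dhx a median of -0.21 (1 higher and 3 lower of 14), a difference that was not tested.

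Few members moved far. At a limit of 1.5-fold on the log2(RPKM + 1) scale, met in the same direction by each knockdown library, 1 member was higher (Ddx60) and 2 were lower (Ddx6 and Ddx56), where 10.5% and 9.98% of all tested genes were. At 2-fold the counts were 1 higher and 1 lower, where the background was 2.57% and 2.83%. The test assumes that the single control has the knockdown libraries' variance. With a control SD taken as 3 times theirs, 0 of 46 members passed by limma (1 higher and 1 lower at an unadjusted p under 0.05), and 1.21% and 0.792% of all genes were still called higher and lower.

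**Figure D1:**
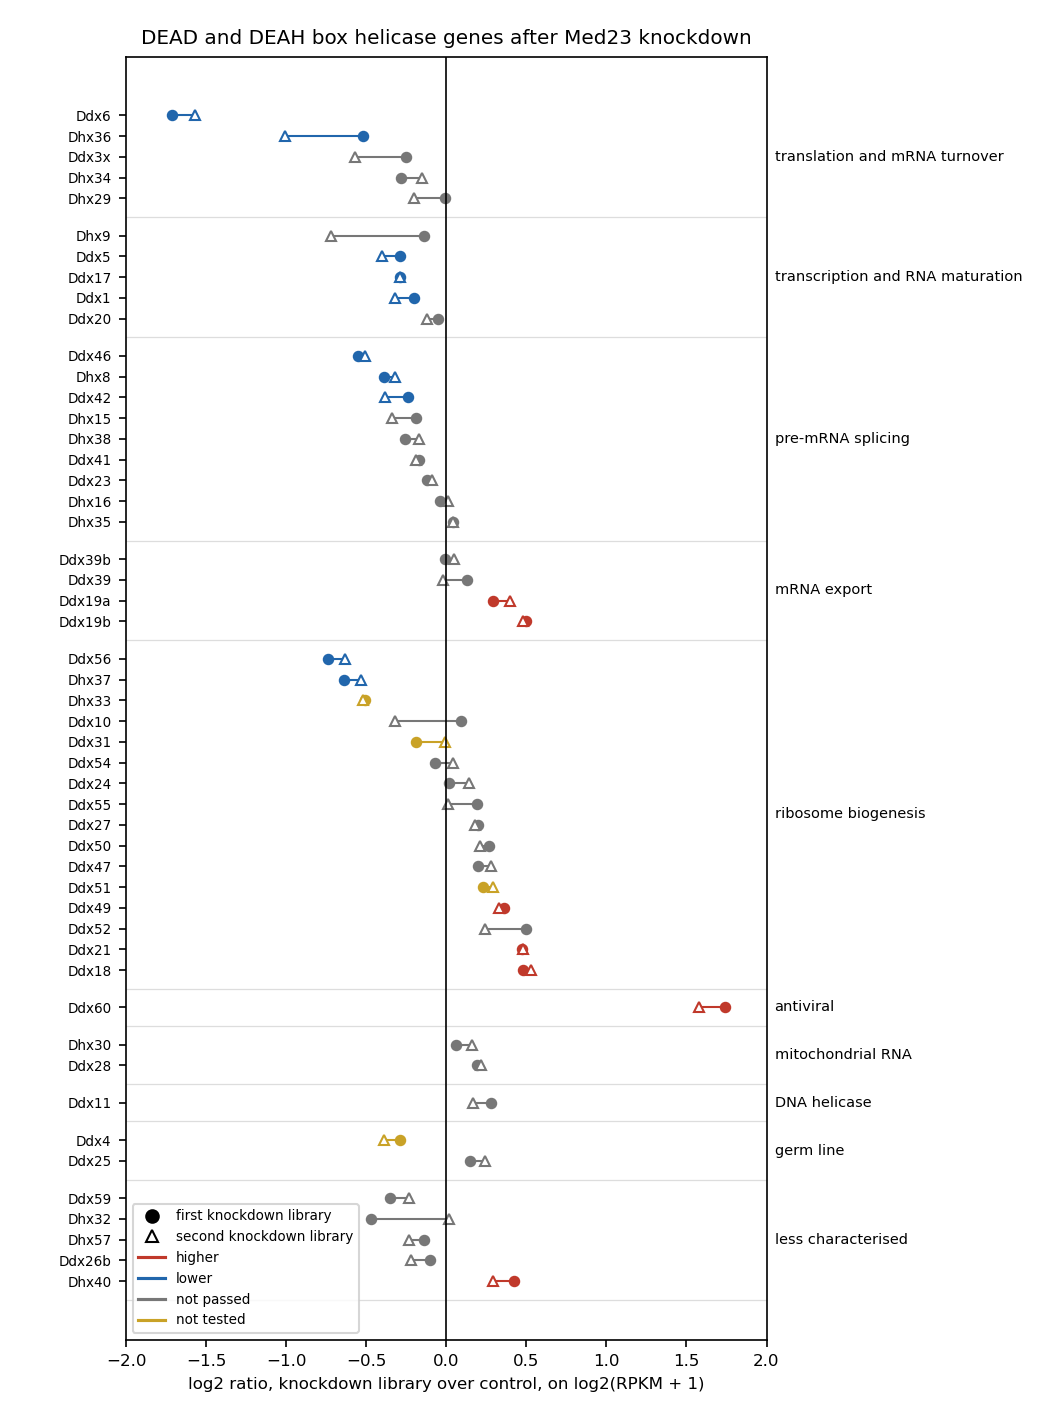
Log2 ratio of each knockdown library over the control, on log2(RPKM + 1), for the 50 helicase genes grouped by process. Filled circles mark the first and open triangles the second knockdown library, and colours give the limma call. Ddx6 stands alone at the left and Ddx60 at the right, and the other genes lie between -1.01 and 0.53.

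The tested member with the lowest log2 ratio belonged to translation and mRNA turnover. Ddx6 (ENSMUSG00000032097), which represses translation and activates decapping in cytoplasmic P bodies, had 18.3 RPKM in the control, 4.90 RPKM in the first knockdown library and 5.48 RPKM in the second. Both knockdown values lay far below the control and close to each other. The mean of 5.19 ± 0.407 RPKM (SD, n = 2) was 3.52-fold lower than the control, and the log2 ratio -1.64 (SE 0.11; 95% interval -1.92 to -1.36; limma adjusted p = 0.000572). Ddx6 ranked 52 from the lowest log2 ratio of the 9722 tested genes. With the 3 times larger control SD its limma adjusted p was 0.0618. Of its 36-base words 6.27% also stood in Gm13410, so a small share of its reads could be assigned to that gene.

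Dhx36, which unwinds G-quadruplexes in RNA and DNA, had 24.8 RPKM in the control, then 17.0 and 11.8 RPKM after knockdown. Both libraries were low, but the second much lower than the first, at 0.693 times its value. Dhx36 fell by 0.77 on the log2 scale (SE 0.20, limma adjusted p = 0.0274). Ddx3x, which helps ribosomes start on structured mRNAs, showed the same order with 19.9 RPKM in the control and 16.6 and 13.1 RPKM after knockdown. It missed the threshold, with a log2 ratio of -0.41 (95% interval -0.78 to -0.04, limma adjusted p = 0.0644). Dhx34, a factor of nonsense-mediated decay, was 5 RPKM and then 3.96 and 4.43 RPKM, and Dhx29, which assists scanning by the small ribosomal subunit, was 4.22 RPKM and then 4.19 and 3.54 RPKM. Neither passed the test. In this process 0 of 5 rose and 2 fell, leaving 3 that did not pass, where 26.3% of all tested genes rose and 24% fell. The median log2 ratio was -0.41. A minimum of 5 RPKM left out Dhx34 and Dhx29, and the median was then -0.77, the value of Dhx36 itself. After a correction for transcript length and GC content, added after seeing the data, the median was -0.21.

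Genes that work with Ddx6 in decapping, deadenylation and P bodies went both ways. The 25 tested comprised 7 that rose, 4 that fell and 14 that did not pass, with a median log2 ratio of 0.12. Thus 44% passed, beside 50.3% of all tested genes (26.3% higher and 24% lower). The 3 genes with the largest change shared by both libraries fell. Cnot6, a deadenylase subunit, had 37.5 RPKM in the control and 15.1 and 14 RPKM after knockdown (log2 ratio -1.31, limma adjusted p = 0.000601). Dcp1a, a decapping cofactor, went from 4.17 to 1.55 and 1.80 RPKM, and Xrn1, the exonuclease that degrades decapped mRNA, from 3.67 to 1.68 and 1.34 RPKM, both past the test. The other gene that fell was Cnot1, the scaffold of the same deadenylase (log2 ratio -0.58), and among those that rose were Lsm5 (0.70), Atxn2l (0.69) and Patl1 (0.50), named after their values were seen. After a correction for transcript length and GC content Cnot1 no longer passed (log2 ratio -0.21, limma adjusted p = 0.0786), and Xrn1 (-0.90 to -0.42) and Lsm5 (to 0.34) still passed with smaller log2 ratios.

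**Figure D2:**
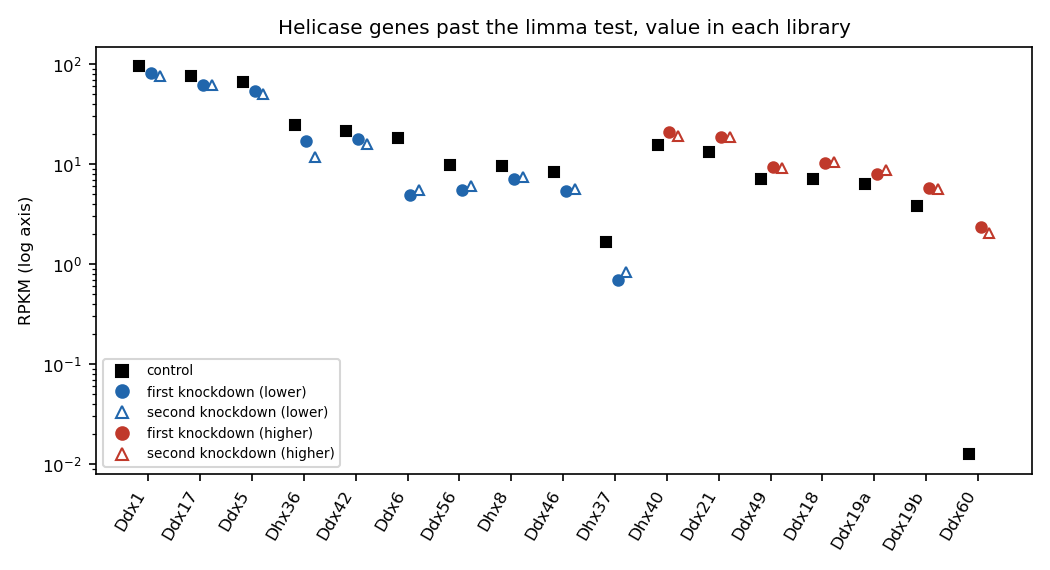
RPKM of the 17 helicase genes past the limma test in each library, on a log axis. Squares are the control, circles the first and triangles the second knockdown library, with genes lower after knockdown at the left and genes higher at the right. The gap is widest for Ddx60, from 0.0126 to 2.37 and 2.04 RPKM, and among the falls for Ddx6.

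Ddx60 (ENSMUSG00000037921), an interferon-induced helicase with antiviral activity, was the member that rose most. It was 0.0126 RPKM in the control, within the lowest 0.941% of that library's values, and 2.37 and 2.04 RPKM in the knockdown libraries. The knockdown mean was 2.2 ± 0.237 RPKM (SD, n = 2) and the log2 ratio 1.66 (SE 0.13, limma adjusted p = 0.000759). A pseudocount of 0.1 in place of 1 gave a log2 ratio of 4.35. Ddx60 was the only member under 1 RPKM in the control that was tested. It passed the filter through the knockdown libraries alone, and so had to be higher there. Its rank was 81 from the highest of 9722, and with the 3 times larger control SD its limma adjusted p was 0.0764.

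The stretch before the Ddx60 start site is shown because interferon-induced genes are known for a repeated GAAA element. The letters GAAA, any 2 bases and GAAA again (GAAA NN GAAA) were searched on both strands of the RefSeq promoters (250 bases before to 50 after each start, GRCm38.p6, another build than the mm9 named for the data). They stood in 3.44% of 32851 promoters and in 2.91% of the 8962 promoters of tested genes. Ddx60 held 2 copies on the strand of the gene, beginning 53 and 19 bases before the start, both with the same letters. The 250 bases before its start (chr8:61927837-61928086, plus strand) are given 5′ to 3′ with the copies in capitals.
Ddx60: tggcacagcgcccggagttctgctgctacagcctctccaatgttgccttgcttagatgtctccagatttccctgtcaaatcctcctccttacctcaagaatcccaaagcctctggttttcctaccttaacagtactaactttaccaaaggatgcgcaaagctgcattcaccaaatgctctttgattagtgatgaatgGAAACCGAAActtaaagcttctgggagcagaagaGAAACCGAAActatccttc

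Among the 44 members with a promoter entry, the other gene with a match was Ddx49, with 1 copy far from its start. A match is a description of the letters and shows no binding.

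Of 13 tested helicases of ribosome biogenesis, which work in the nucleolus on pre-rRNA, 3 rose, 2 fell and the others did not pass. Over all tested genes 26.3% rose and 24% fell. Ddx18 had 7.05 RPKM in the control, then 10.2 and 10.6 RPKM after knockdown, a 1.48-fold higher mean (log2 ratio 0.50, SE 0.10, limma adjusted p = 0.0102). Of its 36-base words 70.2% also stood in other genes, mainly Gm16433, so its level is uncertain. Ddx21, which links pre-rRNA transcription with processing, was 13.1 RPKM and then 18.5 and 18.7 RPKM (log2 ratio 0.48, SE 0.09, limma adjusted p = 0.00818). Both knockdown values of each gene were above the control and nearly equal.

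Ddx49 rose by less, from 7.09 RPKM to 9.36 and 9.16 RPKM (log2 ratio 0.34, limma adjusted p = 0.0340). Its exons overlap those of Homer3 on the opposite strand over 29.8% of their length, and whether strand was used in counting is not known here. The same limit holds for Ddx39 and Ddx41 (17.4% each) and Ddx54 (15.5%). Ddx52, needed for the small subunit, was 12.1 RPKM and then 17.4 and 14.4 RPKM, and with this spread it did not pass (limma adjusted p = 0.0623).

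Ddx50, the paralog and chromosomal neighbour of Ddx21, was 24.3 RPKM and then 29.5 and 28.2 RPKM, and Ddx47, of the early small subunit particle, was 24.3 RPKM and then 28.1 and 29.8 RPKM. Each had a log2 ratio of 0.24 and missed the threshold narrowly (limma adjusted p = 0.0543 and 0.0563). In both genes each knockdown value lay above the control.

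Against these, Ddx56 (ENSMUSG00000004393), a helicase of the large subunit, had 9.86 RPKM in the control, then 5.51 and 6.03 RPKM after knockdown. Its mean was 1.71-fold lower, at -0.68 on the log2 scale (SE 0.11, limma adjusted p = 0.00575). Dhx37, which frees the U3 snoRNP from the small subunit particle, was 1.65 RPKM and then 0.695 and 0.832 RPKM (log2 ratio -0.59, SE 0.12, limma adjusted p = 0.0123). Dhx37 passed the filter through its control value, since both knockdown values were below 1 RPKM. In plain RPKM its mean was 2.16-fold lower. On the log2(RPKM + 1) scale the ratios were -0.64 in the first and -0.53 in the second library, and the second was short of the 1.5-fold limit. Dhx33 had 1.41 RPKM in the control, then 0.693 and 0.684 RPKM after knockdown, and its mean lay under the filter. With no filter Dhx33 and Ddx4 were called lower by limma, and the family had 6 higher and 9 lower of 50, beside 19.5% and 18.9% of all 12852 genes.

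The other nucleolar genes tested did not pass. Ddx24 was 34.5 RPKM and then 34.9 and 38.2 RPKM, Ddx27 was 5.24 RPKM and then 6.19 and 6.07 RPKM, and Ddx54 was 12.3 RPKM and then 11.6 and 12.6 RPKM. Ddx10 lay on both sides of its control of 5.58 RPKM, at 6.02 and 4.27 RPKM, and Ddx55 was 1.57 RPKM and then 1.93 and 1.60 RPKM. Of the untested members, Ddx51 was 0.765 RPKM and then 1.07 and 1.15 RPKM, and Ddx31 was 0.732 RPKM and then 0.517 and 0.716 RPKM. The 13 tested of 16 members had a median log2 ratio of 0.19, and 8 did not pass.

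The proteins that assemble ribosomes beside these helicases showed a like median. The 48 tested comprised 13 that rose, 7 that fell and 28 that did not pass, with a median log2 ratio of 0.19. Thus 41.7% passed, beside 50.3% of all tested genes (26.3% higher and 24% lower). Utp14a, which partners Dhx37 in the small subunit particle, went from 4.23 RPKM to 9.22 and 9.82 RPKM (log2 ratio 1.01, limma adjusted p = 0.00174). Rrs1, of the 5S particle, went from 6.89 to 13.4 and 14.1 RPKM, and Imp3, a U3 protein, from 32.3 to 58.3 and 59.0 RPKM, both past the test. After the length and GC correction the log2 ratio of Imp3 went from 0.84 to 0.51.

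Of 9 spliceosomal helicases, which drive the rearrangements of the splicing cycle, 3 fell (33.3%), where 24% of all tested genes did. Ddx46, which acts when the U2 particle joins the branch site, had 8.38 RPKM in the control, then 5.40 and 5.59 RPKM after knockdown. The 2 knockdown values were nearly equal and 1.53-fold below the control on average (log2 ratio -0.53, SE 0.10, limma adjusted p = 0.0105). Dhx8, which releases the spliced mRNA, fell from 9.55 RPKM to 7.08 and 7.47 RPKM (log2 ratio -0.35, limma adjusted p = 0.0353). Ddx42, a partner of the U2 particle, fell from 21.2 RPKM to 17.8 and 16.0 RPKM (log2 ratio -0.31, limma adjusted p = 0.0465).

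The remaining spliceosomal members did not pass. Dhx15, which takes the spliceosome apart, was the most abundant at 58.7 RPKM in the control, with 51.4 and 46.0 RPKM after knockdown (log2 ratio -0.27, 95% interval -0.49 to -0.05, limma adjusted p = 0.0517). Dhx38, of the second catalytic step, was 10.1 RPKM and then 8.22 and 8.85 RPKM. Ddx41 was 19.1 RPKM and then 16.8 and 16.6 RPKM, and Ddx23, which displaces the U1 particle, was 19.6 RPKM and then 17.9 and 18.4 RPKM. Dhx16, needed before the first step, was 10.7 RPKM and then 10.4 and 10.8 RPKM, and Dhx35 was 4.89 RPKM and then 5.03 and 5.05 RPKM. In all, 0 of 9 rose and 3 fell, leaving 6 that did not pass, 8 of the 9 log2 ratios were below 0, and the median was -0.21. Over all 9722 tested genes 4747 log2 ratios were below 0.

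Many DEAH box helicases are switched on by proteins with a G-patch, a short glycine-rich segment. Of 16 such genes tested, 2 rose and 3 fell, leaving 11 that did not pass, with a median log2 ratio of 0.02. Thus 31.2% passed, beside 50.3% of all tested genes. Son, a nuclear speckle protein, went from 9.30 RPKM to 3.8 and 3.70 RPKM (log2 ratio -1.12, limma adjusted p = 0.00140), and Gpatch8 from 6.79 to 3.59 and 3.23 RPKM. Pinx1, a nucleolar telomerase inhibitor, rose from 0.769 RPKM to 2.23 and 2.66 RPKM, and it too reached the filter through its knockdown values alone.

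Among export helicases the nuclear pore pair rose. Ddx19b, which strips export factors from mRNA at the nuclear pore, had 3.79 RPKM in the control, then 5.78 and 5.70 RPKM after knockdown, a 1.51-fold higher mean (log2 ratio 0.49, SE 0.11, limma adjusted p = 0.0141). Ddx19a, its neighbour and close paralog, was 6.33 RPKM and then 7.93 and 8.65 RPKM (log2 ratio 0.34, SE 0.11, limma adjusted p = 0.0456). Of the 36-base words of Ddx19a 36.4% also stood in Ddx19b, so reads may have been split between them and the 2 rises are not independent. Ddx39b, the helicase of the TREX export complex, was 51.4 RPKM and then 51.1 and 53.2 RPKM (log2 ratio 0.02, 95% interval -0.15 to 0.19). Its paralog Ddx39 was 5.43 RPKM and then 6.04 and 5.34 RPKM. Thus 2 of 4 rose and 0 fell, leaving 2 that did not pass, with a median log2 ratio of 0.20. Of all tested genes 26.3% rose and 24% fell.

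Few of the partner proteins in export passed. Of 20 genes of TREX and the pore tested, 3 rose and 1 fell, leaving 16 that did not pass, with a median of 0.03. Thus 20% passed, beside 50.3% of all tested genes. Nxt1, the cofactor of the main mRNA exporter, rose from 14.8 RPKM to 20.1 and 21.2 RPKM (log2 ratio 0.45). Eny2, of the TREX-2 complex at the pore, rose from 8.84 RPKM to 12.2 and 11.0 RPKM. Zc3h11a fell from 30.6 RPKM to 24.9 and 21.1 RPKM. With no filter Eny2 and Zc3h11a missed the threshold (limma adjusted p = 0.0558 and 0.0539), and after a correction for transcript length and GC content so did Nxt1 (log2 ratio 0.18, limma adjusted p = 0.147).

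The helicases that work with transcription and on precursor RNAs held the most abundant members, and all 5 log2 ratios were below 0. So were 4747 of the 9722 log2 ratios over all tested genes. Ddx5 and Ddx17, paired coregulators of transcription and of microRNA processing, moved alike. Ddx5 had 66.1 RPKM in the control, then 54.0 and 50 RPKM after knockdown (log2 ratio -0.34, SE 0.08, limma adjusted p = 0.0158). Ddx17 was 75.4 RPKM and then 61.6 and 61.4 RPKM (log2 ratio -0.29, SE 0.06, limma adjusted p = 0.0138). Ddx1, part of the tRNA ligase complex, was 94.9 RPKM and then 82.3 and 75.6 RPKM (log2 ratio -0.26, limma adjusted p = 0.0325). In each of the 3 genes both knockdown values lay below the control by less than 1.5-fold. Of the 36-base words of Ddx5 30.6% also stood in other genes, mainly Gm12183.

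Dhx9, which binds the RNA polymerase complex and resolves RNA-DNA hybrids, was 19.4 RPKM in the control, 17.5 RPKM in the first and 11.4 RPKM in the second knockdown library. The second library lay far below the first, and Dhx9 did not pass (log2 ratio -0.43, 95% interval -1.01 to 0.16, limma adjusted p = 0.176). Ddx20, of the SMN complex that builds spliceosomal particles, was 5.94 RPKM and then 5.69 and 5.38 RPKM. This process had 0 higher, 3 lower and 2 not past the test, where 26.3% of all tested genes were higher and 24% lower. Its median was -0.29, or -0.18 after the length and GC correction. Ddx1 and Ddx17 no longer passed after that correction or without limma's intensity trend. Among 8 partners in the Microprocessor and the SMN complex, 3 rose and 0 fell (37.5% passed, beside 50.3% of all tested genes). These were Smn1 (3.56 RPKM, then 5.85 and 6.08 RPKM), Gemin7 (8.22 RPKM, then 11.0 RPKM in each) and the gene listed as Sip1, an older symbol of Gemin2 (3.93 RPKM, then 7.60 and 6.98 RPKM). After the length and GC correction Gemin7 no longer passed (log2 ratio 0.06, limma adjusted p = 0.649), and Smn1 went from a log2 ratio of 0.61 to 0.37.

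Among mitochondrial, germ line and less studied members (2, 1 and 5 tested) and Ddx11, 1 gene passed, where 50.3% of all tested genes did. Ddx28 and Dhx30, which assemble the mitochondrial ribosome, were 3.40 and 9.81 RPKM in the control, then 4 and 4.11 RPKM for Ddx28 and 10.3 and 11.1 RPKM for Dhx30. Neither passed. Ddx11, a DNA helicase of sister chromatid cohesion, was 1.77 RPKM and then 2.38 and 2.11 RPKM and did not pass. Ddx25, known from spermatids, was present at 5.39 RPKM and then 6.09 and 6.56 RPKM, whereas Ddx4, the germ cell Vasa protein, was 0.399 RPKM and then 0.142 and 0.0678 RPKM and was not tested.

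Dhx40, whose role is little known, was the 1 gene that rose among 5 less studied members, where 26.3% of all tested genes rose. It had 15.4 RPKM in the control, then 21.0 and 19.1 RPKM after knockdown (log2 ratio 0.35, SE 0.10, limma adjusted p = 0.0299). Ddx59 was 1.88 RPKM and then 1.25 and 1.45 RPKM, and Dhx57 was 2.96 RPKM and then 2.58 and 2.37 RPKM. Ddx26b, a relative of Integrator subunit 6, was 3.41 RPKM and then 3.12 and 2.79 RPKM. GENCODE names this gene Ints6l, and it is counted as a helicase gene here by its deposited symbol alone. Dhx32 was 3.75 RPKM in the control, 2.44 RPKM in the first and 3.82 RPKM in the second knockdown library. None of these 4 passed.

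RNA helicases without a Ddx or Dhx name were looked at beside the family. Of 15 tested, 2 rose and 6 fell, leaving 7 that did not pass, with a median log2 ratio of -0.17. Thus 53.3% passed, beside 50.3% of all tested genes (26.3% higher and 24% lower). Dicer1, which cuts microRNA precursors, fell from 7.02 RPKM to 3.95 and 3.58 RPKM (log2 ratio -0.75, or -0.35 after the length and GC correction, limma adjusted p = 0.00495 and 0.0230). Eif4a2, a DEAD box translation factor, rose from 62.3 RPKM to 126 and 114 RPKM (log2 ratio 0.93, limma adjusted p = 0.00105).

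**Figure D3:**
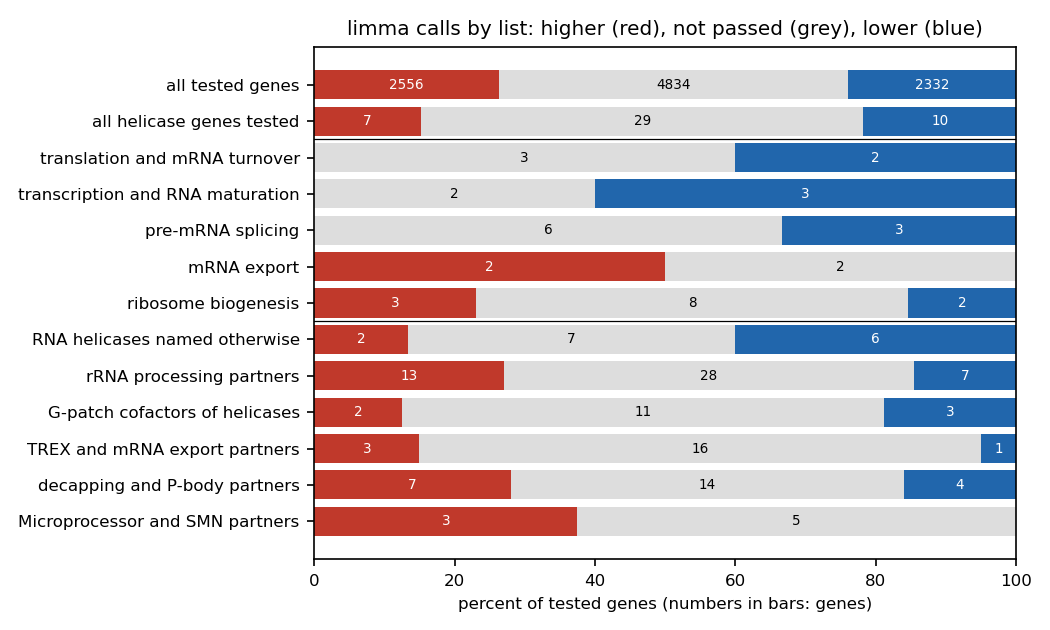
Percent of tested genes called higher (red), not past the test (grey) or lower (blue) by limma, for all genes, the helicase genes, 5 processes and 6 lists of partner genes, with the number of genes in each bar. The helicase genes hold 7 higher, 29 not past the test and 10 lower, and the spliceosomal, turnover and transcription groups hold 0 higher. Over all tested genes 26.3% were higher and 24% lower.

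The knockdown libraries differed from each other for some members. In 7 genes the second library was below the first by more than 1.2-fold, and in 2 the first was below the second. No share over all genes stands beside these counts. They include the untested Ddx4 and Ddx31, both under 1 RPKM in every library. Dhx9 (0.651 times), Dhx36 (0.693 times) and Ddx10 (0.709 times) were the tested members with the lowest ratio of second to first library, and Dhx32 had the highest (1.57 times). Over the 46 tested members, the difference between the libraries on the log2 scale (second minus first) went with the GC content of the longest transcript (Spearman 0.48, beside 0.34 over 9614 genes). Genes are not independent replicates, and this is a description. Dhx36 has a GC content of 40.0% and Dhx9 of 44.6%, beside a member median of 49.4%. Ddx50 (37.4%) and Ddx24 (40.3%) had second library values of 0.958 and 1.09 times the first. Whether GC content lies behind the differences of single genes was not tested. Over the members the log2 ratio of knockdown over control itself showed little relation to GC content (Spearman 0.01), beside 0.18 over the 9614 genes. Its relation to length over the members was weak (-0.17).

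**Figure D4:**
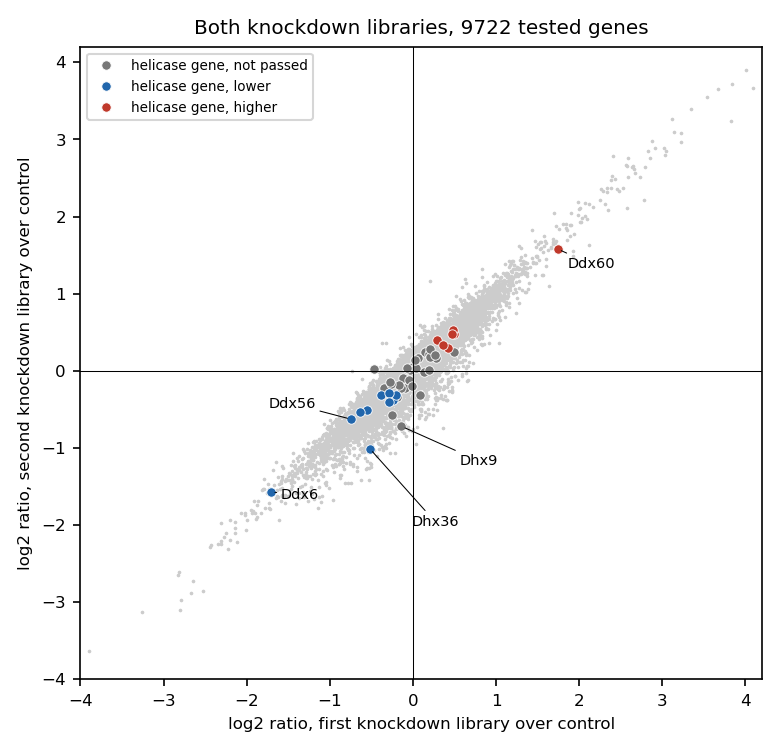
Log2 ratio of the second against the first knockdown library over the same control, on log2(RPKM + 1), for 9722 tested genes (grey) and 46 helicase genes (coloured by call). Both axes share the control, so a diagonal is built in. Dhx36 and Dhx9 lie below it, with 0.693 and 0.651 times the first library's RPKM in the second.

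A loess correction of each knockdown library for transcript length and GC content, chosen after seeing the data, left 12 of the 17 calls in place. Ddx1, Ddx17 and Ddx42, called lower, and Ddx19a and Ddx49, called higher, no longer passed. After correction their values were -0.09, -0.18, -0.23, 0.27 and 0.18 on the log2 scale (limma adjusted p = 0.315, 0.0727, 0.0723, 0.0614 and 0.195). Ddx6 and Ddx60 passed with corrected log2 ratios of -1.37 and 1.99, and so did Dhx36 with -0.48 and Ddx46 with -0.31. Ddx56 moved away from 0, to -0.84, and Ddx19b to 0.74.

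The correction also brought in 7 members. Ddx25 (0.47), Ddx47 (0.32), Ddx50 (0.42) and Ddx52 (0.39) were then called higher, and Ddx41 (-0.32), Ddx59 (-0.40) and Dhx15 (-0.26) lower. With it 5 nucleolar members were called higher and Ddx56 and Dhx37 lower. The counts over the family were 9 higher and 10 lower of 46, beside 27.5% higher and 24.5% lower over the 9614 genes with a length. Ddx39b, Dhx29 and Ddx26b changed sign without passing in either fit.

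**Figure D5:**
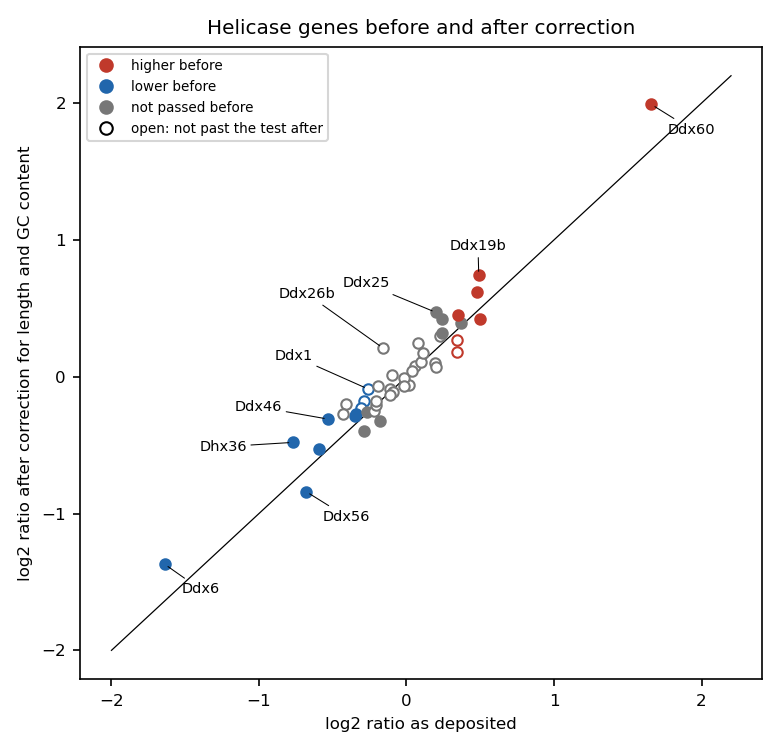
Log2 ratio of each of the 46 tested helicase genes as deposited (horizontal) and after correction for transcript length and GC content (vertical), with a line of equal values. Colours give the call before correction and open circles genes that did not pass after it. Ddx6 moved from -1.64 to -1.37 and Ddx60 from 1.66 to 1.99.

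Promoter letters other than those of Ddx60 were also searched on both strands. The E box CACGTG, bound by Mitf and by Myc, stood in 7 of 55 member promoters (12.7%), beside 10.4% of the promoters of tested genes and 7.15% of all. The Ets site CCGGAAGT, bound by Elk1 among others, stood in 11 member promoters (20.0%), beside 8.70% and 3.89%. Of these 11, 2 were overlapping Dhx34 entries that hold the same site. The M box TCATGTG, another Mitf motif, stood in 0 member promoters, beside 2.05% and 3.77%. No member promoter held more than 1 kind of these motifs. Of the 10 genes with an Ets site 0 rose and 3 fell, leaving 7 that did not pass. Of the 7 genes with an E box 1 rose, 2 fell, 2 did not pass and 2 were not tested. Over all tested genes 26.3% rose and 24% fell. No test was run on these shares.

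The stretches of the 6 genes that passed limma's test and held an E box or an Ets site are given, 30 bases each on the strand of the gene, with the motif in capitals. They lie at chr5:125434094-125434123 (minus strand, Dhx37), chr11:101732964-101732993 (plus, Dhx8), chr15:79546952-79546981 (minus, Ddx17), chr11:86807763-86807792 (minus, Dhx40), chr11:106230506-106230535 (plus, Ddx42) and chr11:106788920-106788949 (minus, Ddx5) of the RefSeq promoters on GRCm38.p6. In Dhx8 the Ets site begins after the start site, and in the others the motif begins before it. Ddx17, Ddx42 and Ddx5 also have promoter entries at other starts, and those held none of the motifs.
Dhx37: gcatgcgcaacCCGGAAGTctcctagccag
Dhx8: cgagcgccgacCCGGAAGTggaagctgtgg
Ddx17: tgcccagagacCCGGAAGTctgactaaggc
Dhx40: gggtggcggaggCACGTGgcgatgggcggg
Ddx42: tcccccatgatgCACGTGggatttttgatc
Ddx5: cctgggtccgatCACGTGatgaggccaagc
The first 3 genes fell, as did Ddx42 and Ddx5, and Dhx40 rose. Genes that did not pass are not shown, among them 7 with an Ets site, so these stretches link no motif to a direction.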

How the data were processed

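Libraries were prepared from total RNA, per the labels' protocols. The deposited values are the authors' RPKM. CASAVA 1.4, TopHat, Cufflinks and mm9 come from the submitters' processing notes. The annotation, gene filter and use of strand are not given in the sources used here. After sorting, 95.3% of positions held the same value in all 3 libraries (to a relative 1e-09), so the RPKM had been quantile normalized before they were deposited. They hold no depth and cannot show a change in total RNA, and 15.0% of the 100 most abundant genes had equal knockdown values.

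Values were analysed as log2(RPKM + 1) with limma 3.58.1 in R 4.3.3 (intensity trend, 1 residual and 4.37 prior degrees of freedom). The fit was also run on simulated data, with means and spread taken from these libraries. It recovered 49 of 50 genes changed 1.5-fold and called 6 of 9522 unchanged genes. These counts describe that run only. There 9522 of 9722 genes were unchanged, while in the deposited data 50.3% of tested genes passed. Recovery and false calls with a larger share of changed genes were not tested. The simulated control had the same SD as the knockdown libraries, so the run cannot show how the test behaves with a more variable control.

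Members and lists were chosen with earlier results of these data known. All members were named, with full statistics by rule for those past the test and changed 1.5-fold in both libraries and for the highest and lowest log2 ratio of each process. Statistics of further members were added after their values were seen. Each partner list gave the 3 genes with the largest change shared by both libraries. One gene that this rule names is not reported here. Agrn, no G-patch protein, was taken out of a list after its values were seen. Lengths, GC content, overlaps and shared 36-base words came from GENCODE M21 (98.1% of genes matched by ID), and 44 members had a RefSeq promoter. Alternatives were a pseudocount of 0.1, no filter, a minimum of 5 RPKM, rescaled libraries, no trend, a control SD 3 times larger, a 2-fold limit, each knockdown library left out, and the correction added later. Tables and plots used Python 3.11.15, pandas 2.3.3, numpy 2.4.6 and matplotlib 3.10.9.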

Additional observations from a re-analysis of the deposited data

How the results depend on the processing

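With 1 control library and no depth, calls rest on the spread of 2 libraries. A control SD of 3 times theirs left 0 members higher and 0 lower by limma, and 0 and 0 of the partner genes (30 and 21 before; 10 and 8 at an unadjusted p under 0.05). The member median log2 ratio of -0.10 was -0.11 with a pseudocount of 0.1, -0.10 with no filter, -0.05 at a minimum of 5 RPKM, -0.06 after the length and GC correction, and -0.06 to -0.05 without the first or the second knockdown library. At 5 RPKM 9 partner genes were lower and 0 members were 1.5-fold higher, because Ddx60 was not tested. After the correction 3 members were 1.5-fold higher, Ddx39b turned to -0.06, Dhx29 to 0.01 and Ddx26b to 0.21, none past the test. At the 2-fold limit 1 member was lower, and with 1 knockdown library left out 3 to 4 were 1.5-fold lower. With no filter 13 of the 17 calls remained, without Ddx19a, Ddx42, Dhx8 and Dhx36, with Ddx4 and Dhx33 added as lower, and without a trend 14, without Ddx1, Ddx17 and Ddx42. The other causes were not tested. No paired analysis was possible because the control has 1 library.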
